A study of Mus musculus with 4 samples.

Results

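The chaperone mRNAs described here are those of 6 mouse genes, taken by symbol from the 47069 gene IDs of the deposited table. Hspa8, Hsp90aa1 and Hsp90ab1 encode chaperones of the cytosol. Hspa5, Hsp90b1 and Canx encode chaperones of the endoplasmic reticulum (ER). Each symbol matched 1 gene ID, and all 6 genes had counts in all 4 libraries. The series set RNA of tumour-derived exosomes, small vesicles that cells release, against RNA of the primary tumour. Both groups started from Lewis lung carcinoma, a transplantable mouse line, grown under the skin of C57BL/6 mice and taken after 3 weeks. Exosomes (2 libraries) were precipitated with ExoQuick-TC from serum-free medium in which tumour pieces had stood for 12 h, after a 0.2 µm filter and without ultracentrifugation. The tumour group (2 libraries) is RNA of the primary tumour itself, which holds host cells beside the carcinoma cells. No agent or genetic change beyond the graft is named for either group. The labels do not say whether the 2 libraries of a group came from separate mice, so a p-value here speaks only of the spread among the 4 libraries, which may be technical.

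Chaperones bind unfolded stretches of other proteins and help them fold. HSP70 proteins such as HSC70 (Hspa8) and BiP (Hspa5) do so in cycles of ATP binding and hydrolysis. HSP90 proteins (Hsp90aa1, Hsp90ab1, and GRP94 from Hsp90b1) take over proteins at a later step, kinases and receptors among them. Calnexin (Canx) is a lectin of the ER membrane that holds newly made glycoproteins until they are folded. Heat shock factor drives the inducible cytosolic genes, and the unfolded protein response drives the ER genes. HSC70 and HSP90 proteins are often found in exosome preparations, but RNA, not protein, was measured here.

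The exosome libraries held 305751 and 217201 gene counts, against 14543691 and 10849811 in the tumour libraries. One count was therefore worth 3.27 and 4.60 CPM (counts scaled to a library total of 1e6) in exosomes, and 0.0688 and 0.0922 CPM in tumour. Protein-coding genes took 2.83% and 3.30% of exosome counts, against 1.55% and 1.58% of tumour counts. Genes that overlap no annotated small RNA gene, with Snrpb also left out, are called clean coding genes below. They held 82.9% and 84.8% of the protein-coding counts in exosomes, against 22.9% and 21.3% in tumour. Of 6 epithelial and carcinoma markers, 3 had a count, summing to 3.27 and 9.21 CPM in exosomes and to 1.03 and 0.369 CPM in tumour. Epcam, Cdh1 and Krt19 were at 0 in every library. Erythroid and platelet markers (6 of 6 with a count) summed to 268 and 470 CPM in exosomes, against 113 and 80.6 CPM in tumour. Fibroblast markers (6 of 6) summed to 78.5 and 101 CPM in exosomes, against 10.0 and 7.83 CPM in tumour. Neutrophil markers (4 of 6, with Ly6g and Mpo at 0 throughout) gave 55.6 and 50.6 CPM in exosomes, against 4.95 and 2.03 CPM in tumour. Macrophage markers (7 of 7) gave 9.81 and 36.8 CPM in exosomes, against 5.78 and 4.52 CPM in tumour. Endothelial markers (5 of 5) gave 19.6 and 23.0 CPM in exosomes, against 1.24 and 1.01 CPM in tumour. Lymphocyte markers (2 of 7) gave 6.54 and 4.60 CPM in exosomes, against 0 and 0.184 CPM in tumour. These numbers of markers are over all 4 libraries. In exosomes alone 2 epithelial, 4 erythroid and platelet, 5 fibroblast, 3 neutrophil, 3 macrophage, 4 endothelial and 2 lymphocyte markers had a count. Adgre1, C1qa, Cd14, Cd68, Csf3r, Pf4, Ppbp, Pdgfra, Kdr and Krt8 had counts in tumour and 0 in exosomes. Only Nkg7 had the reverse. All 7 marker sums were higher in CPM in both exosome libraries than in either tumour library. Scaled to library totals, 63.8% of all genes tested below were called higher in exosomes, so this direction is not particular to the markers. The epithelial sums rest on 1 and 2 exosome counts, and the lymphocyte sums on 2 and 1. The part of these cell types in the chaperone values was not tested.

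Summed over the 6 genes, chaperone mRNA had 45 and 29 counts in exosomes, against 720 and 544 counts in tumour. As a share of all gene counts this came to 0.0147% (exact Clopper-Pearson 95% interval 0.0107 to 0.0197) and 0.0134% (0.00894 to 0.0192) in exosomes. In tumour it came to 0.00495% (0.00460 to 0.00533) and 0.00501% (0.00460 to 0.00545). Both exosome shares lay above both tumour shares, and the intervals of the groups did not overlap. The mean share was 0.0140% ± 0.000966 in exosomes and 0.00498% ± 0.0000448 in tumour (SD, n = 2 each), 2.82 times as high in exosomes. This is 1.49 on the log2 scale, while the median log2 difference of all genes tested below was 2.75 by edgeR with library totals. The higher share is therefore not particular to the chaperone genes. Reads carried no molecular identifiers, so the intervals of the shares cover counting error only. In RNA of a whole tumour or a vesicle preparation, fewer cells or vesicles of a type and less RNA in each cannot be told apart.

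The direction depended on what the chaperone counts were divided by. Of protein-coding counts, the 6 genes held 0.521% and 0.405% in exosomes, against 0.319% and 0.318% in tumour, 1.45 times as much in exosomes by the means. On that denominator the 3 cytosolic genes held 0.405% and 0.321% in exosomes, against 0.193% and 0.181% in tumour. The 3 ER genes held 0.116% and 0.0838% in exosomes, against 0.126% and 0.137% in tumour. The ER sum was thus lower in both exosome libraries, while the cytosolic sum was higher. The exact intervals of the ER sum, from 10 and 6 exosome counts, were 0.0555 to 0.213% and 0.0308 to 0.182%. Both held both tumour values, so the lower ER sum is not beyond counting error. These directions are those of the sums and do not hold for each gene. Set against clean coding counts, which leave out Hspa8 and Hsp90b1 since annotated small RNA genes lie inside them, the 6 genes came to 0.628% and 0.478% in exosomes, against 1.39% and 1.49% in tumour. Both exosome values there lay below both tumour values. The means were 0.553% ± 0.107 in exosomes and 1.44% ± 0.0734 in tumour (SD, n = 2 each), 2.61 times as high in tumour. The sums get no test, and 2 libraries against 2 could not reach an exact two-sided permutation p below 0.333.

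Ratios between the 6 genes within a library do not depend on any scaling, and Hsp90ab1 and Canx were the members whose parts of the chaperone counts differed most between the groups. The 3 cytosolic genes had 35 and 23 counts in exosomes, against 435 and 310 in tumour, and the 3 ER genes had 10 and 6 counts in exosomes, against 285 and 234 in tumour. The cytosolic to ER ratio of counts was thus 3.50 and 3.83 in exosomes, against 1.53 and 1.32 in tumour. Both exosome ratios lay above both tumour ratios, by 1.37 on the log2 scale (exact two-sided permutation test, p = 0.333, the smallest that 2 against 2 allows). Hsp90ab1 made up 55.6% and 48.3% of the chaperone counts in exosomes, against 29.9% and 29.0% in tumour. Its mean part was 51.9% ± 5.15 in exosomes and 29.5% ± 0.578 in tumour (SD, n = 2 each). Exact 95% intervals were 40.0 to 70.4% and 29.4 to 67.5% for the exosome libraries, against 26.5 to 33.4% and 25.3 to 33.1% for the tumour libraries. The interval of exosome replicate 2 overlapped those of both tumour libraries. Canx made up 13% ± 3.68 of the chaperone counts in exosomes, against 29.9% ± 3.99 in tumour. Its exact 95% intervals were 6.49 to 29.5% and 2.19 to 27.4% for the exosome libraries, against 23.9 to 30.5% and 28.8 to 36.8% for the tumour libraries. Those of the ER sum were 11.2 to 37.1% and 7.99 to 39.7%, against 36.0 to 43.3% and 38.8 to 47.3%. Both exosome intervals overlapped that of tumour replicate 1 in each case. The interval of tumour replicate 2 was overlapped by that of exosome replicate 1 for Canx and by that of exosome replicate 2 for the ER sum. The Hsp90ab1 to Canx ratio of counts was 3.57 and 4.67 in exosomes, against 1.10 and 0.888 in tumour. Within the cytosolic genes, the Hsp90ab1 to Hsp90aa1 ratio was 8.33 and 3.5 in exosomes, against 2.36 and 2.03 in tumour. That is 1.30 on the log2 scale, so a shift of like size was also seen inside the cytosolic set. The Hspa8 to Hspa5 ratio, another cytosolic to ER pair, was 7 and 2.5 in exosomes, against 2.15 and 2.47 in tumour, with exosome replicate 2 close to the tumour libraries. The parts of Hspa8 (16.4% ± 1.19 in exosomes, 15.8% ± 3.05 in tumour), Hsp90aa1 (10.2% ± 5.04 in exosomes, 13.5% ± 1.20 in tumour), Hspa5 (4.56% ± 3.31 in exosomes, 6.92% ± 1.99 in tumour) and Hsp90b1 (3.95% ± 0.704 in exosomes, 4.47% ± 0.433 in tumour) differed between the groups by less than the larger SD. These parts and ratios leave out near-identical copies of the genes, described below. With copies added, Hsp90aa1 held 4 of 47 and 6 of 33 counts in exosomes, against 197 of 861 and 163 of 673 in tumour. Its part was then lower in both exosome libraries than in either tumour library.

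**Figure D1:**
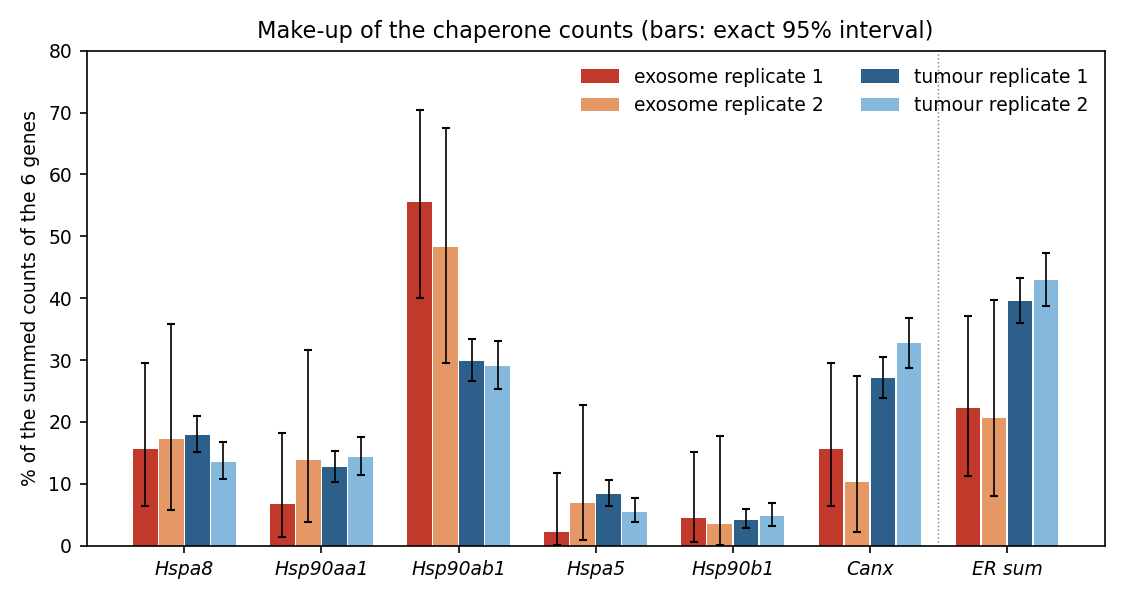
Each bar is the percentage of the summed counts of the 6 chaperone genes that 1 gene held in 1 library, with its exact 95% interval, and the last group is the sum of the 3 ER genes. The 2 exosome libraries stand left of the 2 tumour libraries. Hsp90ab1 takes 55.6% and 48.3% in exosomes against 29.9% and 29.0% in tumour, and the ER sum takes 22.2% and 20.7% in exosomes against 39.6% and 43.0% in tumour.

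Levels are given as FPKM, the authors' counts scaled to gene length and to the library total, and differences as log2, exosomes minus tumour, from edgeR's quasi-likelihood test on counts. That fit scaled libraries by TMM, which sets the bulk of genes equal between libraries, and its factors were 2.41 and 2.93 for exosomes against 0.388 and 0.365 for tumour. It covered 1442 genes, and a call needs a Benjamini-Hochberg adjusted p under 0.05. All 6 chaperone genes passed its filter on low counts, and each would have passed from the tumour libraries alone. The count of calls is read against a background of 22.1% of all tested genes called lower in exosomes and 16.0% called higher. Of the 6 genes, 4 were called lower and 0 higher, and 0 were higher at an unadjusted p under 0.05 in edgeR or by DESeq2.

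Hspa8, the constitutive cytosolic HSP70 (ENSMUSG00000015656, chr9:40800984-40810087 on GRCm38, plus strand), had 7 and 5 counts in exosomes, against 129 and 74 counts in tumour. Its FPKM was 2.52 and 2.53 in exosomes, against 0.976 and 0.751 in tumour. Scaled by TMM it was 9.69 and 7.98 CPM in exosomes, against 22.9 and 18.7 CPM in tumour. The groups did not overlap on either scale, but exosomes were the higher group in FPKM and the lower in TMM CPM. By edgeR it was lower in exosomes by a log2 difference of -1.23 (SE 0.35, adjusted p = 0.0251). With 1 library left out, the edgeR adjusted p ranged from 0.0351 to 0.243, and Hspa8 was called only in the fit without exosome replicate 1, with 0.0577 without exosome replicate 2, 0.243 without tumour replicate 1 and 0.0940 without tumour replicate 2.

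Hspa8 hosts 3 genes of the U14 family of box C/D small nucleolar RNAs, guides for ribosomal RNA processing and methylation that are cut from their host's introns. They are Snord14c (chr9:40803583-40803668), Snord14d (chr9:40803995-40804080) and Snord14e (chr9:40804748-40804837), on the strand of Hspa8. Each also lies within an exon of an annotated Hspa8 transcript. Their sequences are shown because reads from them could be counted to either gene. Capitals mark the C box TGATGA near the 5′ end and the D box CTGA near the 3′ end, as found in the GENCODE M21 transcripts.
Snord14c: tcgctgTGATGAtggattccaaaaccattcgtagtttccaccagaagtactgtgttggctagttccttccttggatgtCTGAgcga
Snord14d: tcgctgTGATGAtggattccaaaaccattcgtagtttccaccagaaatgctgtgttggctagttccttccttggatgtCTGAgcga
Snord14e: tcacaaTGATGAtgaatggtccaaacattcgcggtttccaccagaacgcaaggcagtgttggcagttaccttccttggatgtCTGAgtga
Snord14c and Snord14d are 86 bases long and differ at 2 positions, and Snord14e is 90 bases long. All 3 had 0 counts in all 4 libraries. Over the table, 22 of 156 snoRNA genes within an exon of another gene on their strand had a count (14.1%), against 187 of 523 within another gene but outside its exons (35.8%) and 55 of 828 elsewhere (6.64%). Whether any Hspa8 count came from a snoRNA cannot be read from gene totals and was not tested. The only other annotated small RNA gene inside a member is Gm25745 (chr10:86705316-86705448), annotated as a miRNA gene inside Hsp90b1, which also had 0 counts in all 4 libraries.

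Hsp90aa1, the heat-inducible cytosolic HSP90 (ENSMUSG00000021270, chr12:110690605-110702728, minus strand), had 3 and 4 counts in exosomes, against 91 and 78 counts in tumour. Its FPKM was 1.49 and 2.80 in exosomes, against 0.952 and 1.09 in tumour. Scaled by TMM it was 4.15 and 6.39 CPM in exosomes, against 16.2 and 19.7 CPM in tumour. The groups did not overlap, with exosomes the higher group in FPKM and the lower in TMM CPM. The edgeR log2 difference was -1.77 (SE 0.42, adjusted p = 0.0113), lower in exosomes. With 1 library left out, the edgeR adjusted p ranged from 0.00819 to 0.0808, and the call was lost without tumour replicate 2 (0.0808).

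Hsp90aa1 has near-identical processed copies elsewhere in the genome, and how the authors assigned reads that match several places is not given in the sources used here. Of 5 copies at least 90% identical over at least 200 bases, 3 had a count. Gm12346 (chr11:77293444-77295898, plus strand), 99.5% identical over 2255 aligned bases, had 1 and 1 counts in exosomes, against 50 and 46 counts in tumour. Gm5844 (chr3:18008806-18010996, plus strand), 98.5% identical over 2202 aligned bases, had 0 and 1 counts in exosomes, against 54 and 37 counts in tumour. Aligned to Hsp90aa1, Gm12346 had 11 mismatches and a longest identical run of 530 bases, and Gm5844 had 21 mismatches and a run of 288 bases. The sequences below, from the GENCODE M21 transcripts, cover an 80-base window of the coding sequence, chr12:110695328-110695407 on the minus strand. This window was picked as the one in which both copies differ most from Hsp90aa1, so it does not stand for the whole alignment. Capitals mark the positions at which any of the 3 differ, and Gm12346 differs there from Hsp90aa1 at 3 positions and Gm5844 at 2.
Hsp90aa1: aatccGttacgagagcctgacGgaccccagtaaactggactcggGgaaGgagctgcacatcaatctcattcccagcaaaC
Gm12346: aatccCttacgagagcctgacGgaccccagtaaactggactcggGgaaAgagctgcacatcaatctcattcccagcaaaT
Gm5844: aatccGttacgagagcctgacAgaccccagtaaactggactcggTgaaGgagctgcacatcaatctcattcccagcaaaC
Copies held 25.0% and 33.3% of the joint count of Hsp90aa1 and its copies in exosomes, against 53.8% and 52.1% in tumour. Hspa8 has 11 such copies, 9 with a count, which held 12.5% and 16.7% of the joint count in exosomes, against 20.9% and 37.3% in tumour. With all copies added to their genes, in a setting chosen after seeing the data, the edgeR log2 difference of Hsp90aa1 was -2.35 (adjusted p = 0.00085) and that of Hspa8 -1.50 (adjusted p = 0.00385), beside 22% of all tested genes called lower. The counts of both genes are uncertain for this reason.

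Hsp90ab1, the constitutive cytosolic HSP90 (ENSMUSG00000023944, chr17:45567775-45573271, minus strand), was the member with the highest level in every library. It had 25 and 14 counts in exosomes, against 215 and 158 counts in tumour. Its FPKM was 14.1 and 11.1 in exosomes, against 2.56 and 2.52 in tumour. Scaled by TMM it was 34.6 and 22.4 CPM in exosomes, against 38.2 and 39.9 CPM in tumour. The exosome libraries were several times higher in FPKM, while in TMM CPM replicate 1 lay close under the tumour libraries and replicate 2 further below. The edgeR log2 difference was -0.44 (SE 0.25, adjusted p = 0.247), which did not pass the test. Its 2 copies, 1 of them with a count, held at most 1 count in any library.

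**Figure D2:**
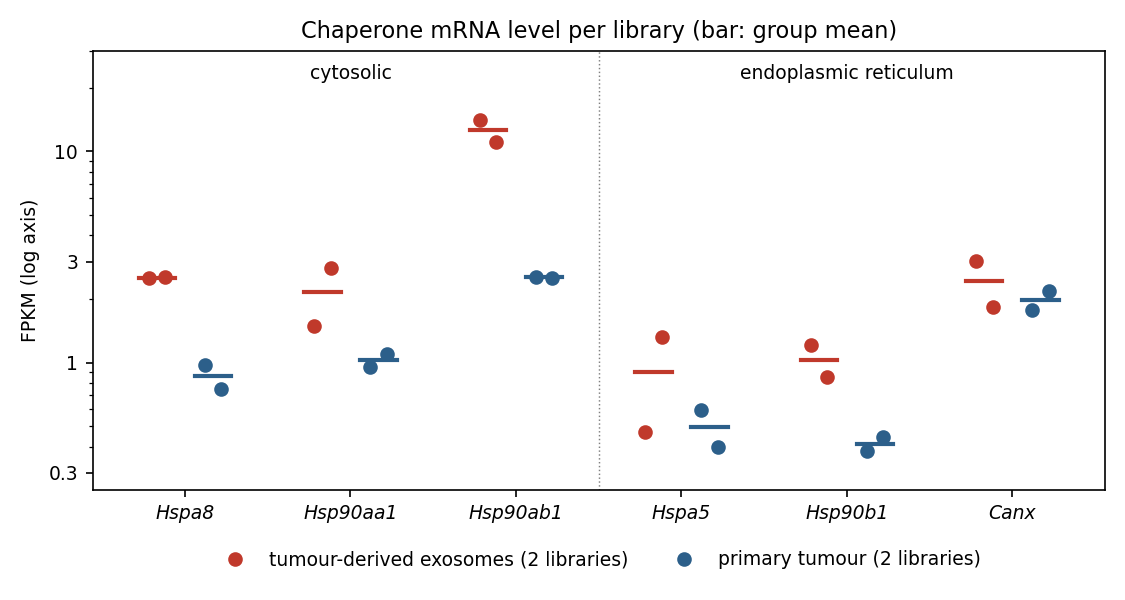
Each point is the FPKM of 1 gene in 1 library on a log axis, with the 2 exosome libraries left of the 2 tumour libraries and a bar at each group mean. The cytosolic genes stand left of the dotted line and the ER genes right of it. Hsp90ab1 is highest in all 4 libraries, at 14.1 and 11.1 in exosomes against 2.56 and 2.52 in tumour, while the groups overlap for Hspa5 and Canx.

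The ER genes share a regulatory element, so their promoters are shown, for reference beside their values. The ER stress response element, searched as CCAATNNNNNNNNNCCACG on both strands, is the site through which factors of the unfolded protein response act on such genes. It was present in the windows of Hspa5, Hsp90b1 and Canx, the 3 members with a sequence in the RefSeq promoter table. It was found in 39 of 32851 promoter windows of 300 bases, a share of 0.119%. The 250 bases before each RefSeq gene start are printed 5′ to 3′ on the gene's strand, from RefSeq's GRCm38.p6, with both ends of each match in capitals (CCAAT and CCACG, or CGTGG and ATTGG for a match on the other strand).
Hspa5 (chr2:34771840-34772089, plus strand): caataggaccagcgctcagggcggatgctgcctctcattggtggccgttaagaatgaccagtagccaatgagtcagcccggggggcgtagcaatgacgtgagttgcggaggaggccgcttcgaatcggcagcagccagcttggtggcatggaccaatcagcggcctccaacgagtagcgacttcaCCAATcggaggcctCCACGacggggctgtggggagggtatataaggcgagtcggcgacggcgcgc
Hsp90b1 (chr10:86705445-86705694, minus strand): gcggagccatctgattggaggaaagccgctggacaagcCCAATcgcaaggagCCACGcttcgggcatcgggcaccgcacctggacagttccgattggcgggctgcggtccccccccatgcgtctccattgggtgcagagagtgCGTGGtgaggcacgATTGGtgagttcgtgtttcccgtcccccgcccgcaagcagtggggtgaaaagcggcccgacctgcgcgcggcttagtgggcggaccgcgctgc
Canx (chr11:50325674-50325923, minus strand): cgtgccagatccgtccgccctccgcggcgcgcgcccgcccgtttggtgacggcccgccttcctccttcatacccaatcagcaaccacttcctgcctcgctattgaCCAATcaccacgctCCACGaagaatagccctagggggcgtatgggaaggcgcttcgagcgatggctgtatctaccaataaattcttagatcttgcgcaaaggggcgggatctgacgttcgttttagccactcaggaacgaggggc
The RefSeq start of Hspa5 and that of Hsp90b1 lie inside the GENCODE M21 loci given below, so part of each of these windows, for Hspa5 with the match, falls within the locus. The match in Hspa5 begins 65 bases before the RefSeq start and that in Canx 145 bases before it, while Hsp90b1 has a match at 212 bases and another, on the opposite strand, at 107 bases. A match describes the letters and says nothing of a factor bound there. Of the 37 genes with the element, 30 were in the table and 6 were tested, which are these 3 and Calr, Pdia6 and Hnrnpa3. Calr, the soluble relative of calnexin, had 2 and 4 counts in exosomes, against 39 and 32 counts in tumour (edgeR log2 difference -0.74, adjusted p = 0.360). Pdia6, an ER disulfide isomerase, had 1 and 2 counts in exosomes, against 17 and 17 counts in tumour (edgeR log2 difference -0.68, adjusted p = 0.591). Hnrnpa3, an RNA-binding protein gene, had 6 and 3 counts in exosomes, against 21 and 7 counts in tumour (edgeR log2 difference 1.20, adjusted p = 0.201). None of these 3 passed the edgeR test. Pdia6 and Hnrnpa3 were too low in both tumour libraries to pass the filter on low counts from them. They were tested through exosome counts, so their log2 differences are shaped by the filter.

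Hspa5, which encodes BiP, the HSP70 of the ER lumen (ENSMUSG00000026864, chr2:34771970-34777547, plus strand), had 1 and 2 counts in exosomes, against 60 and 30 counts in tumour. Its FPKM was 0.471 and 1.33 in exosomes, against 0.593 and 0.398 in tumour, and the groups overlapped. Scaled by TMM it was 1.38 and 3.19 CPM in exosomes, against 10.7 and 7.58 CPM in tumour, with no overlap. The edgeR log2 difference was -2.04 (SE 0.65, adjusted p = 0.0413). The ratio of the summed counts on the TMM scale, exosomes over tumour, was 0.237 with an exact counting interval of 0.0479 to 0.714, since it rests on 3 exosome counts. With 1 library left out, the edgeR adjusted p ranged from 0.0344 to 0.181, and Hspa5 was no longer called without exosome replicate 1 (0.181) or without tumour replicate 1 (0.141). The log2 difference ran from -2.73 without exosome replicate 2 to -1.53 without exosome replicate 1. DESeq2, which called 20.8% of all tested genes lower and 14.4% higher, gave a log2 difference of -2.14 and an adjusted p of 0.0714.

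Hsp90b1, which encodes GRP94, the HSP90 of the ER lumen (ENSMUSG00000020048, chr10:86690209-86705509, minus strand), had 2 and 1 counts in exosomes, against 30 and 26 counts in tumour. Its FPKM was 1.21 and 0.853 in exosomes, against 0.382 and 0.444 in tumour. Scaled by TMM it was 2.77 and 1.60 CPM in exosomes, against 5.33 and 6.57 CPM in tumour. Exosomes were again the higher group in FPKM and the lower in TMM CPM, without overlap. The edgeR log2 difference was -1.39 (SE 0.64, adjusted p = 0.142) and did not pass the test. The TMM ratio of summed counts was 0.381, with an exact counting interval of 0.0762 to 1.17.

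Canx, which encodes calnexin (ENSMUSG00000020368, chr11:50293961-50325673, minus strand), had 7 and 3 counts in exosomes, against 195 and 178 counts in tumour. Its FPKM was 3.03 and 1.83 in exosomes, against 1.78 and 2.17 in tumour, and the groups overlapped. Scaled by TMM it was 9.69 and 4.79 CPM in exosomes, against 34.7 and 45.0 CPM in tumour, with both exosome libraries far below both tumour libraries. It had the largest edgeR log2 difference of the 6 genes, -2.41 (SE 0.38, adjusted p = 0.00143), or 5.33-fold lower in exosomes. Canx was called lower in exosomes in each of the 4 fits that left out 1 library, with edgeR adjusted p from 9.8e-05 to 0.00172 and log2 differences from -3.03 without exosome replicate 1 to -2.04 without exosome replicate 2. It was the only member called in all 4 of them.

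Ordered by FPKM, Hsp90ab1 came first in all 4 libraries, and the highest member stood 30 and 13.1 times above the lowest in exosomes, against 6.69 and 6.33 times in tumour. Canx came next in exosome replicate 1 and in both tumour libraries, and Hsp90aa1 in exosome replicate 2. Hspa5 and Hsp90b1 filled the lowest places in every library, in either order. By group means, Hspa8 (2.53 ± 0.0094 FPKM), Canx (2.43 ± 0.852) and Hsp90aa1 (2.15 ± 0.925) did not differ beyond their spread in exosomes, and neither did Hsp90b1 (1.03 ± 0.253) and Hspa5 (0.898 ± 0.605). In tumour, Canx (1.97 ± 0.281 FPKM) stood above Hsp90aa1 (1.02 ± 0.10) and Hspa8 (0.864 ± 0.160), which did not differ beyond their spread, and the same held of Hspa5 (0.496 ± 0.138) and Hsp90b1 (0.413 ± 0.0437) (SD, n = 2 each). The lengths behind the deposited FPKM exceeded the annotated exons of each member, with 5785 bases for Hsp90ab1 against 2999 exon bases in GENCODE M21 and a locus of 5497 bases. With exon lengths in their place, Hsp90ab1 stayed first in all 4 libraries and Hspa8 came next in both exosome libraries.

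The scale set the direction of every member. Scaled to library totals in place of TMM, the log2 differences by edgeR were all above 0, and the 2 called higher in exosomes were Hsp90ab1 at 2.33 (adjusted p = 2.9e-07) and Hspa8 at 1.54 (adjusted p = 0.0108), with 0 called lower. The other 4 lay between 0.36 for Canx (adjusted p = 0.536) and 1.36 for Hsp90b1 (adjusted p = 0.189). That scaling moved the median of all tested genes by 2.74 on the log2 scale, with 63.8% of them called higher and 11.5% called lower in exosomes. Relative to that median, the members stood between -2.40 for Canx and -0.42 for Hsp90ab1, and under TMM between -2.43 and -0.46 for the same genes. A stricter filter under TMM, at least 10 counts in 2 libraries, left Hspa8 (log2 difference -0.79, edgeR adjusted p = 0.131) and Hspa5 (-1.60, adjusted p = 0.0985) uncalled and put Hsp90ab1 at 0.0046, with Canx and Hsp90aa1 still lower. In that fit 297 genes were called lower and 193 higher in all. Without a filter all 6 were called lower, with log2 differences from -3.59 for Canx to -1.62 for Hsp90ab1 (edgeR). Of 14421 genes with a count, 610 were called lower there and 215 higher. Genes outside the family moved down in that fit too, with the chaperonin gene Cct6a at -1.15 against 0.02 under the main filter. Scaled to the clean coding total, the same 4 genes as under TMM were called lower, with log2 differences from -2.51 for Canx to -1.32 for Hspa8 (edgeR adjusted p from 0.0008 to 0.0314), beside 23.7% of all tested genes called lower and 15.7% called higher.

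**Figure D3:**
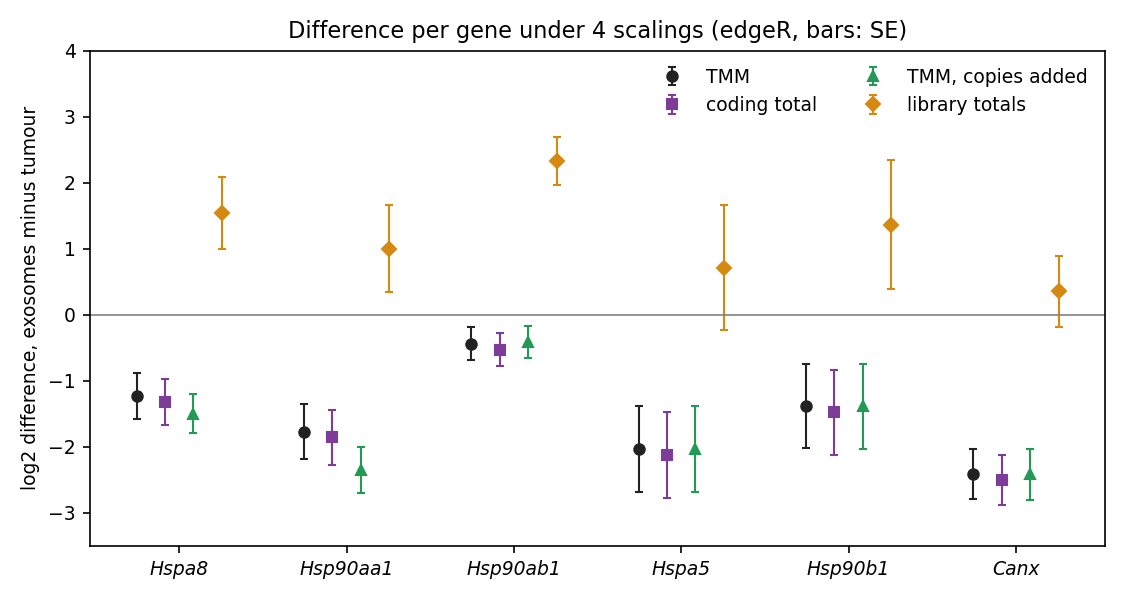
Each marker is the edgeR log2 difference, exosomes minus tumour, of 1 gene under 1 of 4 settings, with its SE as a bar. Under library totals all 6 genes lie above 0, from 0.36 to 2.33, and under TMM, the clean coding total and TMM with copies added all 6 lie below it, from -2.51 to -0.41.

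Against protein-coding genes of like standing, the chaperone genes were near the background. Of 954 tested protein-coding genes, 10.5% were called lower in exosomes and 5.35% higher, with a median log2 difference of 0.06. Most of those did not reach the filter's level of 1.79 CPM in both tumour libraries. Of the 264 that did, all 6 members among them, 37.9% were called lower and 1.52% higher, with a median of -1.33. The median of the 6 chaperone genes was -1.58. Under library totals, 45.8% of the 264 were called higher and 6.44% lower, with a median of 1.43, against a median of 1.18 for the 6. Nothing particular to the chaperone genes is therefore read from their 4 calls.

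**Figure D4:**
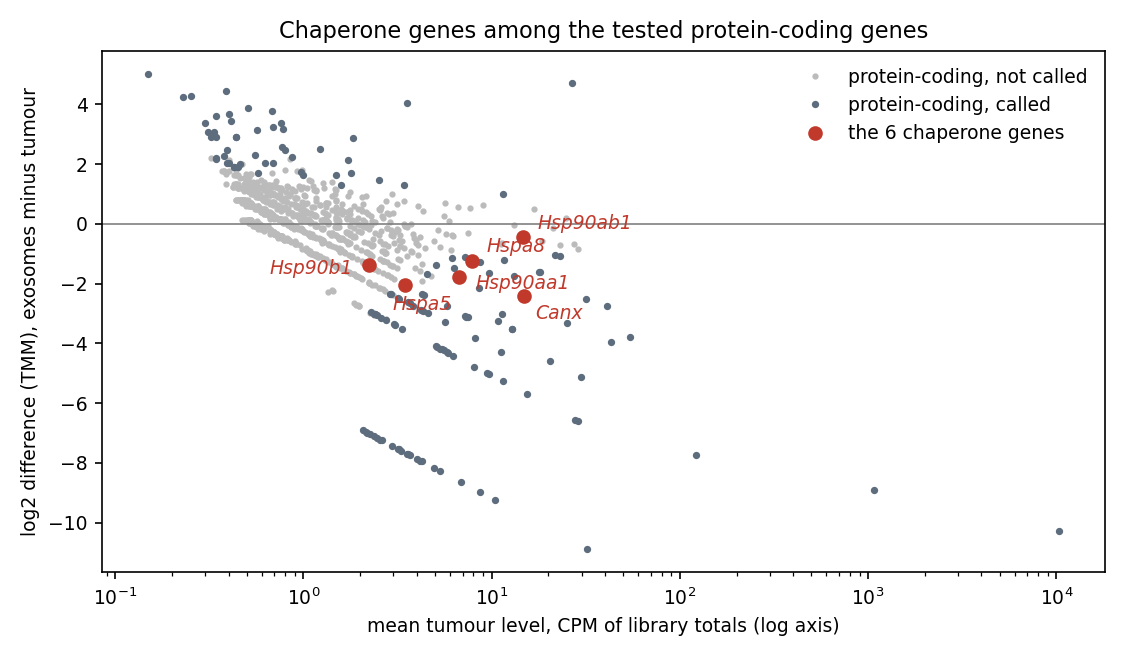
Each point is 1 tested protein-coding gene with a tumour count, placed by its mean tumour level in CPM of library totals (log axis) and its edgeR log2 difference under TMM, exosomes minus tumour. Dark points were called. The 6 chaperone genes are labelled and run from -2.41 for Canx to -0.44 for Hsp90ab1, within the spread of other genes at like tumour levels.

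Other genes of the protein-folding machinery were too thinly counted for most to be tested. Of 112 genes in 7 lists, 103 had a count and 24 were tested by edgeR. Of these 24, 1 was called lower in exosomes and 0 higher, beside 22.1% and 16.0% of all tested genes. Their median log2 difference was -0.64, beside 0.02 over all tested genes. Since 1 exosome count is worth more than the filter's 1.79 CPM, a gene could reach that level with 1 count in each exosome library. Of the 24, only Calr, Erp44, Hspd1, Cct2 and Tcp1 reached it in both tumour libraries. The others did not and were tested through exosome counts. Fkbp4, Atf4, Cct6a, Bag6, Dnajc13, Serpinh1, Hspa9 and Hsph1 were among them. Genes as low in tumour without exosome counts were left out, so both medians are shaped by the filter. At an unadjusted p under 0.05, 1 of the 24 was higher and 2 were lower, and DESeq2 called 0 higher and 1 lower. The 103 genes with a count, tested or not, summed to 70 and 78 counts in exosomes (229 and 359 CPM), against 1016 and 700 in tumour (69.9 and 64.5 CPM). Scaled to library totals, 12 of the 24 were called higher and 0 lower, beside 63.8% and 11.5% of all tested genes.

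The call was among the ER lectins, foldases and lumenal chaperones, of which 11 were tested, with a median log2 difference of -0.68. Erp44, which retains ER enzymes by thiol bonds, had 0 and 3 counts in exosomes, against 126 and 65 counts in tumour (edgeR log2 difference -3.11, SE 0.73, adjusted p = 0.0108). It was called in each fit that left out 1 library, with a log2 difference of -2.02 without exosome replicate 1. Without exosome replicate 2 its exosome count is 0 and no fold is given. Erp44 overlaps an annotated miRNA gene, Mir1958, and whether its counts hold reads of that gene was not tested. Serpinh1, the collagen chaperone, had 1 and 2 counts in exosomes, against 9 and 8 counts in tumour (edgeR log2 difference 0.32, adjusted p = 0.849). Calr is given above.

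Of 6 tested chaperonin and small heat shock genes, 0 were called, with a median log2 difference of -1.25. Cct2, a subunit of the cytosolic chaperonin TRiC, had 1 and 1 counts in exosomes, against 30 and 22 counts in tumour (edgeR log2 difference -1.84, adjusted p = 0.0727). Cct6a, another subunit, which overlaps snoRNA genes, had 3 and 3 counts in exosomes, against 24 and 18 counts in tumour (edgeR log2 difference 0.02, adjusted p = 0.989). Of 13 further HSP70 and HSP110 genes, 3 were tested and 0 called. Hspa9, the mitochondrial HSP70, also overlapping snoRNA genes, had 1 and 2 counts in exosomes, against 15 and 23 counts in tumour (edgeR log2 difference -0.85, adjusted p = 0.566). Hsph1, an HSP110 that exchanges nucleotide on HSP70, had 1 and 2 counts in exosomes, against 15 and 13 counts in tumour (edgeR log2 difference -0.39, adjusted p = 0.799).

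Each of the remaining 4 lists had 1 tested gene, and 0 of the 4 were called by edgeR. All 4 were tested through their exosome counts, so their log2 differences are shaped by the filter. Of 15 HSP90 partners, Fkbp4, an immunophilin co-chaperone, had 4 and 1 counts in exosomes, against 6 and 5 counts in tumour (edgeR log2 difference 1.65, adjusted p = 0.108). Of 15 regulators of the heat shock and unfolded protein responses, Atf4, a transcription factor, had 1 and 4 counts in exosomes, against 12 and 11 counts in tumour (edgeR log2 difference 0.61, adjusted p = 0.606). Of 20 J-domain genes, which bring proteins to HSP70, Dnajc13 had 1 and 1 counts in exosomes, against 14 and 6 counts in tumour (edgeR log2 difference -0.48, adjusted p = 0.789). Of 11 exchange factors and partners of HSP70, Bag6 had 1 and 2 counts in exosomes, against 16 and 9 counts in tumour (edgeR log2 difference -0.22, adjusted p = 0.898).

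The genes with a pattern most like that of the summed members were sought among 729 tested protein-coding genes. These leave out the members and genes that overlap an annotated small RNA gene. Likeness was measured by the Euclidean distance between log2 CPM values over the 4 libraries, each centred on its own mean. The nearest was Ctsa, a lysosomal carboxypeptidase, at a distance of 0.138, with 2 and 1 counts in exosomes, against 40 and 31 counts in tumour. Kif1b, a kinesin motor, lay at 0.212 with 2 and 1 counts in exosomes, against 42 and 26 counts in tumour. Lamb1, a laminin chain, lay at 0.212 too, with 4 and 3 counts in exosomes, against 71 and 57 counts in tumour. All 3 had a higher CPM in both exosome libraries than in either tumour library, as did the sum and the genes named next. Since the genes were chosen by this pattern, the shared direction follows from the choice. Actn1, an actin crosslinker, lay at 0.215 with 3 and 2 counts in exosomes, against 63 and 51 counts in tumour. Gatad2b, a subunit of the NuRD chromatin complex, lay at 0.361 with 2 and 1 counts in exosomes, against 32 and 21 counts in tumour. By edgeR under TMM, Lamb1 (log2 difference -1.37, adjusted p = 0.0339) and Actn1 (-1.68, adjusted p = 0.0236) were called lower in exosomes, and the other 3 were not. Neither Lamb1 (edgeR adjusted p from 0.0963 to 0.214) nor Actn1 (from 0.0569 to 0.139) was called in any of the 4 fits that left out 1 library.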

How the data were processed

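The members and gene lists were chosen with earlier results of these data known. Per the file headers, each library has 1 count column and 1 FPKM column, and the 4 sample tables equal the series table. The counts, as deposited, are whole and not normalized. The authors' FPKM equal count over gene length and library total within 0.0822%. The submitters' processing notes name TopHat2 2.0.9, Cufflinks 2.1.1, Cuffdiff and GRCm38.p4. The counter, the annotation, the strand setting and the treatment of reads with several matches are not named in the sources used. Per the labels, adaptors were joined to both RNA ends before reverse transcription, PCR and gel selection.

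Of the gene IDs, 46574 of 47069 matched GENCODE M21 (GRCm38), which gave symbols, biotypes and coordinates. The test was edgeR's two-sided quasi-likelihood test (edgeR 4.0.16, R 4.3.3) of group alone, on TMM-scaled counts. Genes had to pass filterByExpr (minimum count 10, minimum total 15, or 1.79 CPM in at least 2 libraries), and p-values were adjusted by Benjamini-Hochberg over these 1442 genes, called at 0.05. The SE is the log2 difference divided by the root of F. The script was tested on simulated data. Totals per library bound the precision, since 1 exosome count is worth 3.27 or 4.60 CPM.

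Alternatives were median-of-ratios, library-total and clean-coding scaling, DESeq2 1.42.0, limma 3.58.1 on log2 of FPKM plus 1 or plus 0.1, other filters, small RNA genes left out, a replicate block, each library left out with the tested genes kept, and, added after seeing the data, copies found with blastn 2.17.0 (at least 90% identity over 200 bases) summed onto their gene. Overlaps used bedtools 2.31.1. Named genes were the 6 members, small RNA genes inside them, and from each list the called genes (at most 4 per direction by mean FPKM) and the 2 others of highest mean FPKM. The 5 tested protein-coding genes nearest to the summed members were named too.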

Additional observations from a re-analysis of the deposited data

How the results depend on the processing

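Direction depended first on the scaling. Scaled to library totals, 920 genes were called higher and 166 lower in exosomes, with 2 members higher and 0 lower, and log2 differences that turned positive were Hspa8 1.54, Hsp90aa1 1.0, Hsp90ab1 2.33, Hspa5 0.71, Hsp90b1 1.36, Canx 0.36, Lamb1 1.40, Calr 2.03, Actn1 1.08, Ctsa 1.03, Hspa9 1.91, Bag6 2.53, Hsph1 2.36, Dnajc13 2.26, Cct2 0.90, Gatad2b 1.45 and Kif1b 1.10. With limma on log2(FPKM + 1) the counts were 830 and 171 genes, 3 members higher and 0 lower, and the differences Hspa8 0.92, Hsp90aa1 0.61, Hsp90ab1 1.94, Hspa5 0.31, Hsp90b1 0.52, Canx 0.19, Lamb1 0.56, Calr 1.15, Actn1 0.66, Ctsa 0.29, Hspa9 0.73, Bag6 0.50, Hsph1 0.48, Dnajc13 0.26, Cct2 0.55, Gatad2b 0.27 and Kif1b 0.15. With limma on log2(FPKM + 0.1) they were 977 and 161 genes, 3 members higher and 0 lower, and Hspa8 1.46, Hsp90aa1 0.94, Hsp90ab1 2.26, Hspa5 0.62, Hsp90b1 1.13, Canx 0.25, Lamb1 1.21, Calr 1.82, Actn1 1.01, Ctsa 0.78, Hspa9 1.60, Bag6 1.69, Hsph1 1.59, Dnajc13 1.24, Cct2 0.86, Gatad2b 0.98 and Kif1b 0.64.

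A floor of 10 counts in each of 2 libraries left 2 members called lower, Canx and Hsp90aa1. It gave 297 genes called lower and 193 called higher in all, and put Hsp90ab1 at 0.0046 and Hsph1 at 0.047. The share of tested genes called under that floor is not given here, so nothing is read from the member calls there. Without a filter 610 of 14421 genes with a count were called lower, all 6 members among them, with Cct6a at -1.15, Atf4 at -0.55 and Serpinh1 at -0.83. With small RNA genes left out, which leaves 1054 genes tested, 79 genes were called higher and 154 lower, and Cct6a was at -0.12. Cct6a, near 0, was also at -0.092 by DESeq2, -0.086 with median-of-ratios scaling and -0.071 with the clean coding total. The log2 ratio of the summed share, 1.49, became 0.54 over protein-coding counts, -1.38 over clean coding counts and 1.33 with copies added. The replicate numbers pair no libraries by the labels, and same-numbered libraries did not deviate together (correlation -0.0234 over tested genes). With the replicate block, 244 genes were called higher and 345 lower, with 4 members lower, and no call named in the text changed. Leaving out 1 library gave 206 to 233 genes called higher, 309 to 324 lower, 0 to 0 members higher and 2 to 3 lower, and a log2 ratio of the summed share of 1.42 to 1.56. Over those fits Bag6 ran from -0.90 to 0.30, Cct6a from -0.093 to 0.13, Hsph1 from -1.08 to 0.12, Atf4 from -0.80 to 1.39 and Serpinh1 from -0.37 to 0.84. The cause of these changes was not tested. At 1 to 25 counts per member in an exosome library, depth limits every value of a single member.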
